A study of Mus musculus with 16 samples.

Results

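The semaphorin, plexin, neuropilin, ephrin, Eph receptor, netrin, Unc5, slit and Robo genes were followed in differentiating mouse embryonic stem cells exposed to hawthorn extract. A probe counted as a member when the array's own annotation gave it a symbol of these families, which held for 58 probes of 28 genes among 56875 gene names on the array. The array names most of its probes by a sequence accession instead of a symbol, and 80 further probes with such names matched 67 genes of the same families through their RefSeq accession, the 28 symbol-named genes among them. Both kinds of probe are described, and are called symbol-named and accession-named. The second kind was added after the files had been seen.

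Total RNA came from 16 samples of the line CGR8-Myh6-GFP, mouse embryonic stem cells that carry a green fluorescent reporter driven by the promoter of the heart myosin gene Myh6 and that were left to differentiate without sorting. The 16 samples fall into 6 groups. Cultures received DMSO (the vehicle, n = 2), the hawthorn (Crataegus) extract WS1442 at 0.25 mg/ml (n = 3), or the MeOH eluate, a fraction of that extract eluted with methanol, at 0.1 mg/ml (n = 3), each from day 4 of differentiation and each for 6 h or 24 h. The question of the comparisons was what each treatment changed against DMSO at the same time point. The 2 doses differ, so a difference between the treatments is also one between doses. A single line stands behind every sample, the cultures are mixtures of cell types, and in such bulk RNA fewer cells of a type and less RNA per cell cannot be told apart. The labels do not say that the samples of a group were separate cultures, so the p-values measure the spread between these samples, which may be technical. All arrays of a time point lay on 1 slide, so time point and slide cannot be told apart.

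Guidance molecules were named for steering axons, and they act by attracting or repelling a cell that carries the matching receptor. Secreted class 3 semaphorins bind neuropilins that pair with plexins, while most membrane-bound semaphorins bind plexins directly. Ephrins are held on the cell surface and signal through Eph receptors to the neighbouring cell and also back into their own cell, netrins act through Dcc and the Unc5 receptors, and slits act through Robo receptors. In the embryo these families also sort cells of germ layers, pattern vessels and shape the outflow tract of the heart.

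Values are normalized log2 signals of 1-colour arrays, in which a step of 1 is a factor of 2, and levels of different probes are not comparable. On each array between 55.1% and 63.0% of gene spots were well above background, the RNA integrity numbers ran from 8.6 to 10, and replicates of a group correlated at 0.991 to 0.997. A probe was kept when 1 group or more had it well above background throughout. Of the 58 symbol-named probes 34 were above background on no array, 13 on 1 to 15 arrays and 11 on all 16, so 18 probes stood for the 15 genes that could be tested. The other 13 genes had no kept symbol-named probe, namely Epha5, Ntn5, Plxna2, Plxnc1, Robo3, Sema3a, Sema3c, Sema3d, Sema3e, Sema3g, Sema4g, Sema6a and Slit2. Of the accession-named probes 76 were kept and stood for 63 genes, with Epha5, Plxnc1, Sema3g and Unc5d not tested. Where a gene had several kept probes of a kind, the brightest stands for it. A gene is called when its difference passed limma's moderated test at a Benjamini-Hochberg adjusted p under 0.05 over all features of the array, and "±" after a log2 difference is its standard error.

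The probes on which the results turn are short designed oligonucleotides, printed 5′ to 3′ as the scanner files list them. The first 3 all carry the symbol Sema4c and lie on the minus strand of mm9, at chr1:36605998-36606057, at chr1:36606063-36606122 and at chr1:36612857-36612916. They are shown because the brightest of them holds a run of 11 TG units, marked by capitals.
Sema4c, brightest probe: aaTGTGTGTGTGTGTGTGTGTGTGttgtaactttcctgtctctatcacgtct
Sema4c, 65 bases further: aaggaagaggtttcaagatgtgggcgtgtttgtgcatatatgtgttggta
Sema4c, 6794 bases beyond the second: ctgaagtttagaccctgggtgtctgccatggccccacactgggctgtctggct
Among the accession-named probes that stand for a gene, that of Sema6d ends in a run of 8 TG units, also in capitals, and that of Sema6b is rich in G and T without so long a run.
Sema6d, accession-named: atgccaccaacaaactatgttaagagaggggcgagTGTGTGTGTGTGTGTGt
Sema6b, accession-named: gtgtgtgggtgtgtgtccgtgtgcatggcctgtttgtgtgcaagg
A run of at least 11 units of TG, or of CA, was held by 15 of 60273 gene probes (0.0249%). The next longest such run among the kept symbol-named probes had 3 units. The next set shows genes that have a probe under both names, whose readings are compared below. Capitals mark AATAAA, the most common polyadenylation signal. The symbol-named probes lie at chr3:89118568-89118627 on the minus strand (Efna3), chr4:136209527-136209586 on the minus strand (Ephb2), chr5:137819822-137819881 on the plus strand (Ephb4), chr8:130884009-130884068 on the plus strand (Nrp1) and chr3:141492190-141492249 on the plus strand (Unc5c), all in mm9. The scanner files give no coordinates for accession-named probes and no exon annotation for either kind.
Efna3, symbol-named: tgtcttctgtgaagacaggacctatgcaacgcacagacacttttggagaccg
Efna3, accession-named: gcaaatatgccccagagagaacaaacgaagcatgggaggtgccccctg
Ephb2, symbol-named: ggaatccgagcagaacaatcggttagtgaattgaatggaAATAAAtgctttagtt
Ephb2, accession-named: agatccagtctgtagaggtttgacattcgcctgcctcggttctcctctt
Ephb2, second accession-named: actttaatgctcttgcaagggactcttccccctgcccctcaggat
Ephb4, symbol-named: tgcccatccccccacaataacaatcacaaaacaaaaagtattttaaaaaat
Ephb4, accession-named: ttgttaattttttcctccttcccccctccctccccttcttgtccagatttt
Nrp1, symbol-named: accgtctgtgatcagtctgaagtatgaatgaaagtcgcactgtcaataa
Nrp1, accession-named: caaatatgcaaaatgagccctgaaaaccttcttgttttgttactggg
Nrp1, second accession-named: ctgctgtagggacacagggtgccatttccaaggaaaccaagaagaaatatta
Unc5c, symbol-named: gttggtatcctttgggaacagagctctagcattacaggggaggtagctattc
Unc5c, accession-named: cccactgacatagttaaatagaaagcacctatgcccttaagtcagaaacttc
The last set gives accession-named probes of the 3 secreted semaphorins and the 2 plexins with large differences.
Sema3f: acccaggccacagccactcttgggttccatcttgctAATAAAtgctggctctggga
Sema3b: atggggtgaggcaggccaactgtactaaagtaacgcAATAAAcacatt
Sema3c: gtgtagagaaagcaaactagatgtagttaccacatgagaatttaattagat
Plxnd1: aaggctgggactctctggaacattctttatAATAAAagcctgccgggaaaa
Plxna4: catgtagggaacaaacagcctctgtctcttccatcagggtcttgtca
AATAAA was found in 3 of the 18 kept symbol-named probes (16.7%), in 6 of the 76 kept accession-named probes (7.89%) and in 3843 of all 60273 gene probes (6.38%). Its complement on the other strand, TTTATT, was found in 0, in 2 (2.63%) and in 1661 (2.76%) of them. A match of these letters is a description of the probe only.

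Read through the symbol-named probes, 6 guidance genes were called against DMSO, among them Efna3 and Ephb2, which were lower, and Ephb4, which was higher. At 6 h none of the 15 tested genes was called with WS1442 by limma, while 3.55% of all features were called higher, 1.17% lower and 0.153% over 2-fold, and 1 gene had an unadjusted p under 0.05. With MeOH eluate at 6 h 0 genes were called higher and 3 lower, against 7.89% and 8.4% of all features, and 1 of the 3 was over 2-fold, against 1.4%. At 24 h WS1442 gave 1 gene called higher and 3 lower, against 11.4% and 12.2%, and none over 2-fold, against 1.35%. MeOH eluate at 24 h gave 1 higher and 2 lower, against 8.94% and 8.21%, and none over 2-fold, against 1.96%. Together the 4 comparisons hold 10 calls in 6 genes, and in the 3 comparisons with calls the share of members called, 20%, 26.7% and 20%, is near that of all features summed over both directions. The median log2 difference over the 15 genes was -0.15, -0.17, -0.26 and -0.15 in the same order, beside medians between -0.01 and 0.02 over all features. The comparisons at a time point share their DMSO samples, so they are not independent of each other.

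Efna3 encodes ephrin-A3, a ligand anchored to the membrane by a lipid, and it was the symbol-named gene called in most comparisons. Its log2 signal at 6 h was 8.91 and 8.92 with DMSO, 8.53, 8.58 and 8.75 with WS1442 and 7.95, 8.25 and 7.97 with MeOH eluate. The 24 h arrays read 8.75 and 8.77 with DMSO, 8.31, 8.33 and 8.41 with WS1442 and 8.17, 8.19 and 8.02 with MeOH eluate. Every treated array lay below both DMSO arrays of its time point, and MeOH eluate below WS1442. The log2 difference from DMSO was -0.29 ± 0.09 (adjusted p = 0.091) with WS1442 and -0.86 ± 0.09 (adjusted p = 2.4e-05) with MeOH eluate at 6 h, and -0.41 ± 0.09 (adjusted p = 0.0055) and -0.63 ± 0.09 (adjusted p = 2.2e-04) at 24 h, of which the last 3 were called. The direct comparison at 6 h called Efna3 lower with MeOH eluate than with WS1442, with a log2 difference of -0.57 ± 0.08 (adjusted p = 0.001), the only such call among the 15 genes at that time, when 11.6% of all features were called.

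The Eph receptors of class B were represented by Ephb1, Ephb2 and Ephb4. Ephb2, a receptor tyrosine kinase for transmembrane ephrins, was lower in both treatments at 24 h. Its log2 signal there was 6.71 and 6.65 with DMSO, 6.38, 6.15 and 6.33 with WS1442 and 6.26, 6.38 and 6.23 with MeOH eluate. All treated arrays lay below both DMSO arrays, with differences of -0.39 ± 0.11 (adjusted p = 0.016) and -0.39 ± 0.11 (adjusted p = 0.022). At 6 h the differences were 0.00 and -0.17 and neither was called. Ephb4, the receptor of ephrin-B2 known from veins, was higher with WS1442 at 24 h by 0.32 ± 0.11 (adjusted p = 0.039), with 5.91 and 6.04 with DMSO, 6.36, 6.25 and 6.28 with WS1442 and 6.22, 6.17 and 6.18 with MeOH eluate. The WS1442 arrays lay above both DMSO arrays by small margins, and the call held under 17 of 28 alternative settings.

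Nrp1, the coreceptor of class 3 semaphorins and of the growth factor VEGF, was dim through its symbol-named probe at 6 h, when 1 of 8 arrays read above background, so its call there with MeOH eluate rests on signals below background and no fold is given. Leaving out calls in which a group had no array above background, MeOH eluate at 6 h held 2 calls among the 15 genes. At 24 h the probe read 5.40 and 5.08 with DMSO, 4.24, 4.56 and 4.87 with WS1442 and 4.70, 4.51 and 4.35 with MeOH eluate. Both treatments lay below DMSO without overlap, with a log2 difference of -0.68 ± 0.36 (adjusted p = 0.20) and -0.72 ± 0.36 (adjusted p = 0.21), and neither difference was called. Unc5c, a netrin receptor of the repulsive kind, was called higher with MeOH eluate at 24 h. It read 5.35 and 4.64 with DMSO, 5.22, 5.37 and 5.39 with WS1442 and 5.82, 5.56 and 5.73 with MeOH eluate. The MeOH eluate arrays were the highest, and the higher DMSO array stood among the WS1442 arrays. The difference of 0.71 ± 0.23 (adjusted p = 0.048) held under 10 of 28 settings, and without DMSO 24 h replicate 2 it was 0.36 and not called (adjusted p = 0.40).

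Sema4c, a membrane semaphorin that binds plexin-B2, was read by 3 symbol-named probes, and its calls came from the one with the TG run. That probe read 13.86 and 13.85 with DMSO, 13.72, 13.70 and 13.71 with WS1442 and 13.69, 13.68 and 13.34 with MeOH eluate at 6 h. By 24 h the signal was 13.68 and 13.57 with DMSO, 13.48, 13.35 and 13.25 with WS1442 and 13.60, 13.77 and 13.64 with MeOH eluate. The called differences were -0.28 ± 0.09 (adjusted p = 0.044) with MeOH eluate at 6 h and -0.26 ± 0.09 (adjusted p = 0.047) with WS1442 at 24 h, and MeOH eluate at 24 h differed by 0.05. It was also the 1 gene of the 15 called between MeOH eluate and WS1442 at 24 h, where 13.7% of all features were called, with 0.31 ± 0.08 (adjusted p = 0.02). In a fit over all kept probes, the probe 65 bases further was lower at 24 h, with -0.67 ± 0.13 (adjusted p = 0.0015) for WS1442 and -0.40 ± 0.13 (adjusted p = 0.038) for MeOH eluate, and gave -0.23 ± 0.13 (adjusted p = 0.25) with MeOH eluate at 6 h. The third gave -0.37 ± 0.14 (adjusted p = 0.071) and -0.06 ± 0.14 (adjusted p = 0.85) at 24 h. All 3 had the same sign with WS1442 at 24 h, and the call with MeOH eluate at 6 h was made by the TG-run probe alone. Without MeOH eluate 6 h replicate 3 its difference there was -0.17 and not called (adjusted p = 0.13). With each of the 16 arrays left out in turn, the TG-run probe kept this call in 9 fits. It kept its call with WS1442 at 24 h in 5.

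Other probes with a TG run moved alike. Outside the guidance families 36 features were read by a probe with 8 or more TG units. With MeOH eluate at 6 h 23 of the 36 were called lower and 0 higher, with a median log2 difference of -0.30 beside -0.01 over all features. With WS1442 at 24 h 30 were lower and 2 higher, with a median of -0.45 beside 0.02. With MeOH eluate at 24 h 0 were lower and 2 higher, with a median of -0.08 and 28 of the 36 below 0. With WS1442 at 6 h 1 was lower and 0 higher, yet 35 of the 36 lay below 0, with a median of -0.21. Between the treatments at 24 h 30 of the 36 were higher with MeOH eluate and 0 lower, with a median of 0.36. The Sema4c calls of the TG-run probe, and those of Sema6d given below, fall in the same comparisons and directions as these features, and the part of the repeat in them was not tested.

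The remaining 9 symbol-named genes were called in no comparison with DMSO. They were Epha1, Epha3, Ephb1, Robo1, Robo2, Sema4b, Sema5a, Sema5b and Sema6d. Sema5a, a membrane semaphorin with thrombospondin repeats, gave -0.39 ± 0.14 (adjusted p = 0.051) with WS1442 at 24 h. Sema4b read 0.46, 0.48, 0.24 and 0.55 above DMSO in the 4 comparisons on the log2 scale, none of them called. Epha3 was above background on all 8 arrays at 6 h and on none at 24 h, so no fold is given at 24 h. None of the 15 genes was called in the comparison of the WS1442 change at 24 h with that at 6 h, where 11.5% of all features were called and 1 gene had an unadjusted p under 0.05. The same held for MeOH eluate, where 7.14% were called and 3 genes had an unadjusted p under 0.05.

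**Figure D1:**
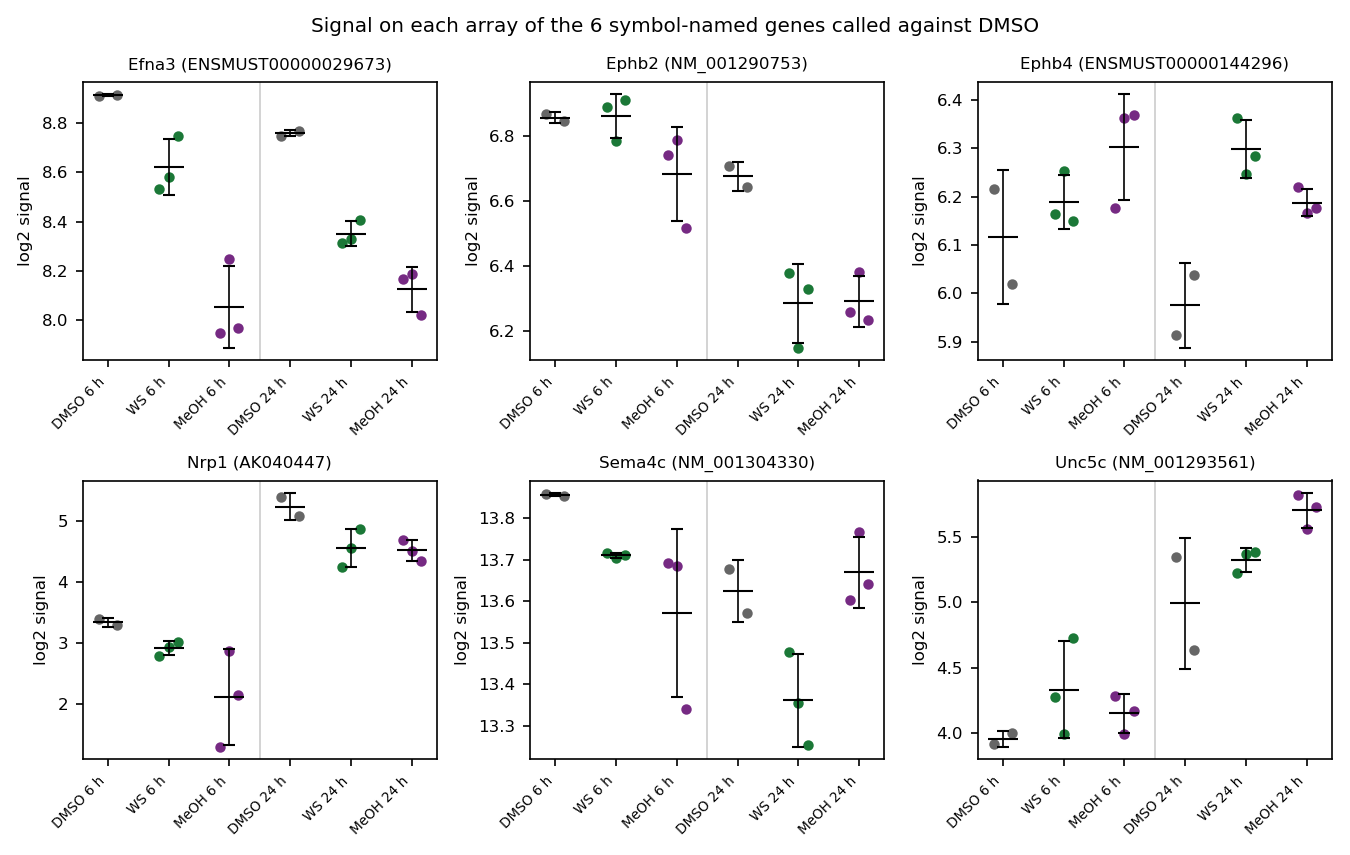
Normalized log2 signal (vertical axis) of the 6 symbol-named guidance genes called against DMSO, with a point for each array, a bar for the group mean and whiskers for the SD, by treatment and time point (MeOH is the MeOH eluate, WS is WS1442). Efna3 lies lower in every treated group and Ephb2 lower in both treated groups at 24 h, while Nrp1 at 6 h reads near or below background.

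The accession-named probes of the same families gave more calls, in both directions. At 6 h WS1442 changed 11 of 62 genes (17.7%), 6 higher and 5 lower, and MeOH eluate 16 of 62 (25.8%), 7 higher and 9 lower. At 24 h WS1442 changed 26 of 63 (41.3%), 13 higher and 13 lower, and MeOH eluate 21 of 63 (33.3%), 9 higher and 12 lower. The shares of all features called were those given above for each direction. The median log2 difference over these genes was -0.03, 0.02, 0.02 and -0.08, and the median absolute difference was 0.19, 0.21, 0.25 and 0.23, beside 0.15, 0.19, 0.22 and 0.18 over all features. Differences over 2-fold numbered 1, 3, 2 and 5. Leaving out calls in which a group had no array above background, which takes out Sema3a at 6 h, the counts at 6 h were 10 and 15, with 0 and 2 over 2-fold. Across the 4 comparisons 38 genes held 74 calls. With each of the 16 arrays left out in turn, 31 of the 74 calls were kept in all 16 fits and 43 were lost in 1 or more, 6 of them kept in fewer than 8 fits. Of the 10 calls of symbol-named genes 3 were kept in all 16 and 7 were not.

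**Figure D2:**
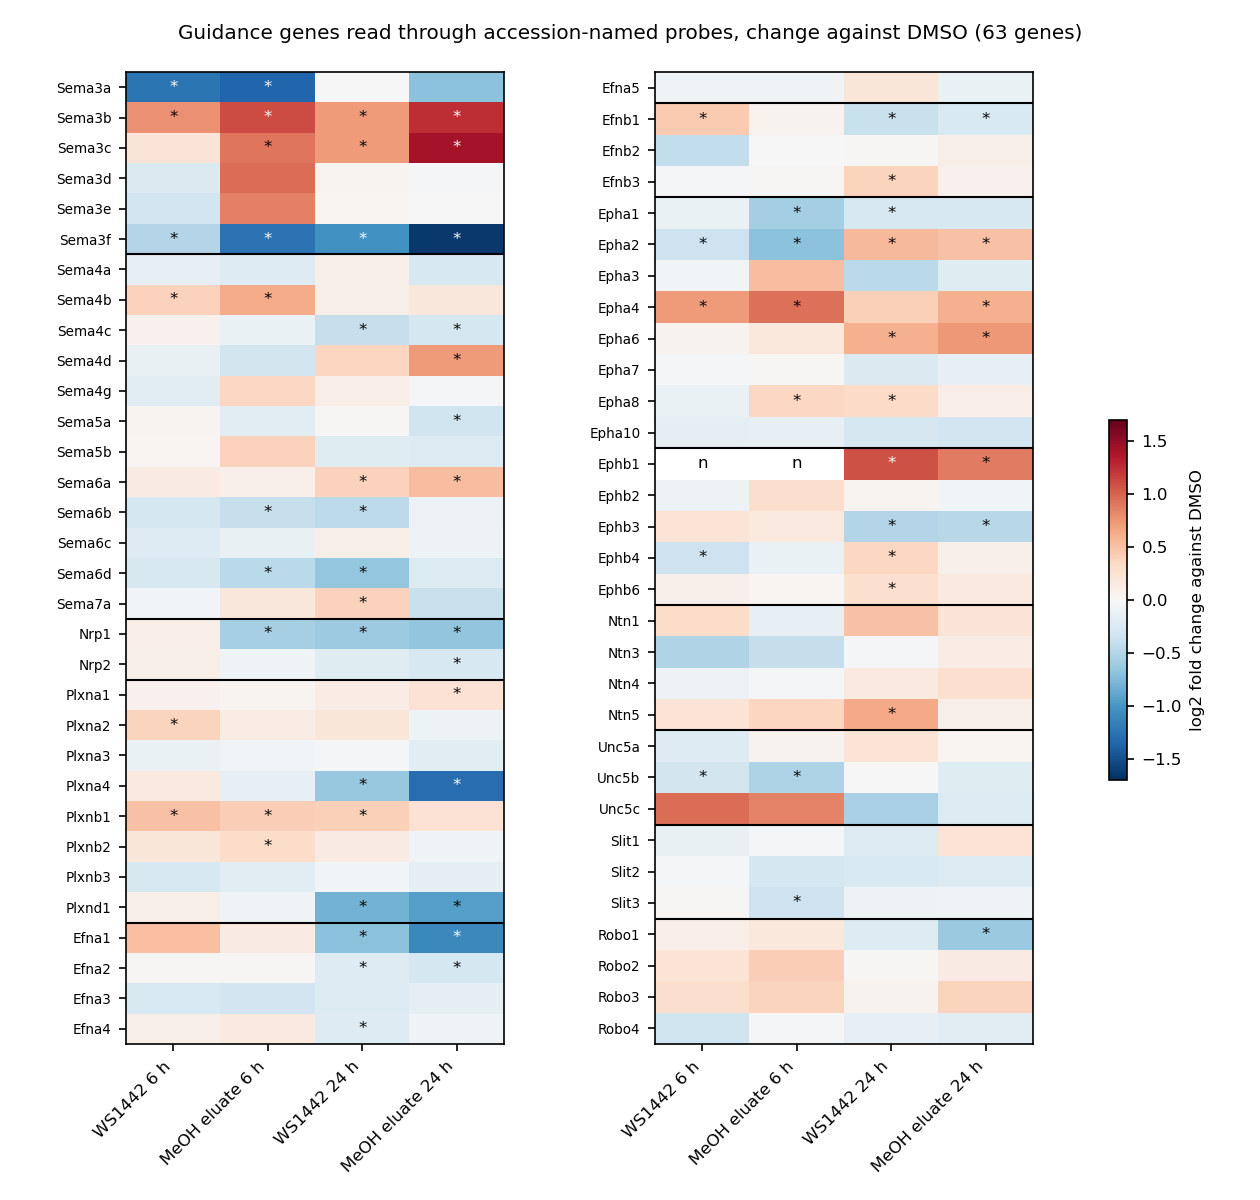
Log2 difference from DMSO (colour scale) of the 63 accession-named guidance genes in the 4 comparisons, grouped by family with a line between families; a star marks a call and n a gene not tested. Sema3b and Sema3c stand out as higher and Sema3f as lower, and Plxna4, Plxnd1 and Efna1 are called lower at 24 h only; the colours of Sema3a and Unc5c at 6 h come from signals near or below background.

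The secreted class 3 semaphorins held the 2 largest called differences of the accession-named genes, of Sema3f and Sema3c with MeOH eluate at 24 h. Sema3b, an attractant or repellent according to the cell that receives it, was higher in all 4 comparisons. At 6 h its log2 signal was 6.55 and 6.60 with DMSO, 7.08, 7.38 and 7.60 with WS1442 and 7.57, 7.78 and 7.70 with MeOH eluate. By 24 h the signal was 7.61 and 7.45 with DMSO, 8.31, 8.30 and 8.14 with WS1442 and 8.78, 8.72 and 8.85 with MeOH eluate. Every treated array lay above both DMSO arrays of its time point, and MeOH eluate lay above WS1442 at 24 h. The differences were 0.78 ± 0.12 (adjusted p = 0.0032) and 1.11 ± 0.12 (adjusted p = 2.9e-05) at 6 h and 0.72 ± 0.12 (adjusted p = 7.8e-04) and 1.25 ± 0.12 (adjusted p = 6.2e-06) at 24 h. A second Sema3b probe gave 0.27 ± 0.22 (adjusted p = 0.58), which was not called, then 0.86 ± 0.22 (adjusted p = 0.017), 0.78 ± 0.22 (adjusted p = 0.021) and 1.31 ± 0.22 (adjusted p = 7.7e-04).

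Sema3c, which is needed for the division of the cardiac outflow tract, was higher in 3 of the 4 comparisons. It read 5.20 and 6.26 with DMSO, 5.77, 5.85 and 6.24 with WS1442 and 6.71, 6.61 and 6.58 with MeOH eluate at 6 h. The later values were 5.10 and 5.14 with DMSO, 5.93, 5.94 and 5.66 with WS1442 and 6.54, 6.69 and 6.39 with MeOH eluate. At 24 h the 3 groups were ordered with no overlap, DMSO lowest and MeOH eluate highest, while at 6 h the 2 DMSO arrays lay far apart and only MeOH eluate stood above both. The differences were 0.22 ± 0.23 (adjusted p = 0.69) and 0.90 ± 0.23 (adjusted p = 0.015) at 6 h, and 0.73 ± 0.23 (adjusted p = 0.034) and 1.42 ± 0.23 (adjusted p = 5.1e-04) at 24 h. The MeOH eluate difference at 6 h was 0.38 and not called without DMSO 6 h replicate 1 (adjusted p = 0.31), and 1.43 without replicate 2.

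Sema3f, which repels neuropilin-2 bearing cells, was the gene with the largest fall. Its signal at 6 h was 9.07 and 9.11 with DMSO, 8.65, 8.51 and 8.62 with WS1442 and 7.82, 7.96 and 7.73 with MeOH eluate. The later values were 9.94 and 9.82 with DMSO, 8.87, 8.92 and 8.74 with WS1442 and 8.30, 8.29 and 8.15 with MeOH eluate. In both time points the 3 groups were separate, with DMSO highest and MeOH eluate lowest. The log2 difference was -0.50 ± 0.08 (adjusted p = 0.0046) and -1.25 ± 0.08 (adjusted p = 2.6e-07) at 6 h, and -1.03 ± 0.08 (adjusted p = 3.9e-06) and -1.63 ± 0.08 (adjusted p = 2.6e-08) at 24 h. The direct comparison of MeOH eluate with WS1442 gave -0.75 ± 0.07 (adjusted p = 4.3e-05) at 6 h and -0.60 ± 0.07 (adjusted p = 2.6e-04) at 24 h. The call with MeOH eluate at 24 h held under 28 of 28 alternative settings, the methods' t-test among them.

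Sema3a, the best known ligand of neuropilin-1, was above background on 1 of 8 arrays at 6 h, so its called differences there rest on signals below background and no fold is given. At 24 h all arrays were above background and read 5.52 and 5.63 with DMSO, 5.48, 5.64 and 5.63 with WS1442 and 4.85, 5.08 and 4.69 with MeOH eluate. MeOH eluate lay below the other groups, with a log2 difference of -0.70 ± 0.30 (adjusted p = 0.14) against DMSO, which was not called. Sema3d and Sema3e, the second of which signals through plexin-D1 without a neuropilin, were not called against DMSO. At 6 h Sema3e read 9.14 and 8.81 with DMSO, 9.34, 8.94 and 7.65 with WS1442 and 9.78, 9.71 and 10.00 with MeOH eluate, and Sema3d read 5.83 and 5.80 with DMSO, 6.71, 5.43 and 4.58 with WS1442 and 7.04, 6.57 and 6.69 with MeOH eluate. WS1442 replicate 3 was the lowest array for both genes. MeOH eluate lay above WS1442 by 1.18 ± 0.28 (adjusted p = 0.016) for Sema3e, and by 1.20 ± 0.34 (adjusted p = 0.038) for Sema3d, whose arrays overlapped. Without WS1442 6 h replicate 3 the Sema3d difference was 0.70 and not called (adjusted p = 0.14), and that of Sema3e was 0.69 and still called (adjusted p = 0.0057), while Sema3e lost its call without MeOH eluate 6 h replicate 3.

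Among the 12 membrane-bound semaphorins the calls went both ways. Sema4b was higher at 6 h in both treatments. It read 8.18 and 8.00 with DMSO, 8.47, 8.50 and 8.49 with WS1442 and 8.75, 8.63 and 8.79 with MeOH eluate, so the treated arrays lay above both DMSO arrays. The differences were 0.40 ± 0.09 (adjusted p = 0.02) and 0.63 ± 0.09 (adjusted p = 2.2e-04), and at 24 h they were 0.10 and 0.19 and not called. Sema6d, a ligand of plexin-A1 active in heart formation, was lower with MeOH eluate at 6 h, with a log2 difference of -0.46 ± 0.11 (adjusted p = 0.011) and with WS1442 at 24 h, with a log2 difference of -0.66 ± 0.11 (adjusted p = 8.0e-04). At the second time point it read 10.13 and 10.01 with DMSO, 9.65, 9.37 and 9.24 with WS1442 and 9.81, 9.92 and 9.80 with MeOH eluate. The WS1442 arrays were lowest there, below MeOH eluate by a margin that the direct comparison called, with MeOH eluate minus WS1442 at 0.42 ± 0.10 (adjusted p = 0.012). A dimmer Sema6d probe, which lacks the TG run, gave 0.30 ± 0.30 (adjusted p = 0.57) and -0.74 ± 0.30 (adjusted p = 0.088) in the 2 comparisons, the first with the opposite sign and neither called. Sema6b was lower in the same 2 comparisons at -0.39 and -0.45, and MeOH eluate lay above WS1442 at 24 h by 0.34 ± 0.10 (adjusted p = 0.043). Without DMSO 6 h replicate 1 the first Sema6b value was -0.25 and not called (adjusted p = 0.36). As described above, the Sema6d probe ends in a TG run and the Sema6b probe is rich in G and T.

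Sema7a, which is held by a lipid anchor and binds integrins, differed between the 2 treatments at 24 h. It read 10.21 and 10.14 with DMSO, 10.36, 10.55 and 10.78 with WS1442 and 9.96, 9.84 and 9.61 with MeOH eluate. WS1442 lay above DMSO by 0.39 ± 0.12 (adjusted p = 0.036), MeOH eluate minus DMSO was -0.38 ± 0.12 (adjusted p = 0.052), and the direct comparison gave -0.76 ± 0.11 (adjusted p = 6.7e-04). A second probe of Sema7a gave 0.04 ± 0.15 (adjusted p = 0.87) with WS1442 and -0.52 ± 0.15 (adjusted p = 0.03) with MeOH eluate, so the rise with WS1442 was read by 1 of 2 probes. Sema6a, a ligand of plexins A2 and A4, was higher at 24 h in both treatments, by 0.39 ± 0.10 (adjusted p = 0.01) and 0.52 ± 0.10 (adjusted p = 0.0017). Its arrays read 8.16 and 7.89 with DMSO, 8.48, 8.38 and 8.38 with WS1442 and 8.47, 8.57 and 8.59 with MeOH eluate, with DMSO lowest, and without DMSO 24 h replicate 2 the WS1442 difference was 0.25 and not called (adjusted p = 0.13). Sema4d, the ligand of plexin-B1, was called higher with MeOH eluate at 24 h by 0.72 ± 0.20 (adjusted p = 0.019), with DMSO arrays at 4.96 and 5.95 and MeOH eluate arrays at 6.08, 6.16 and 6.30. The 2 DMSO arrays lay further apart than the 2 group means, and the difference was 0.23 and not called without DMSO 24 h replicate 1 (adjusted p = 0.37) and 1.22 without replicate 2. The call was also lost without MeOH eluate 24 h replicate 3. Sema4c was lower at 24 h through its accession-named probe, with a log2 difference of -0.39 ± 0.10 (adjusted p = 0.0092) and -0.30 ± 0.10 (adjusted p = 0.046), the second -0.18 and not called without MeOH eluate 24 h replicate 3 (adjusted p = 0.16). Sema5a was lower with MeOH eluate at 24 h, with a log2 difference of -0.34, a call that held under 11 of 28 settings.

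The receptors of the semaphorins included 2 neuropilins and 8 tested plexins. Nrp1 through its brighter accession-named probe was lower in both treatments at 24 h and with MeOH eluate at 6 h. It read 8.51 and 8.48 with DMSO, 8.67, 8.36 and 8.80 with WS1442 and 7.82, 8.06 and 7.90 with MeOH eluate at 6 h. At the second time point it read 10.24 and 10.18 with DMSO, 9.66, 9.45 and 9.68 with WS1442 and 9.59, 9.55 and 9.48 with MeOH eluate. The WS1442 arrays at 6 h overlapped DMSO, and in the other 3 comparisons the treated arrays all lay below. The differences were 0.11 ± 0.11 (adjusted p = 0.65) and -0.57 ± 0.11 (adjusted p = 0.0029) at 6 h, and -0.62 ± 0.11 (adjusted p = 0.0011) and -0.67 ± 0.11 (adjusted p = 5.3e-04) at 24 h. A second accession-named probe gave -0.60, -0.74 and -0.91 in these 3, all called. Nrp2, the neuropilin that Sema3f prefers, was lower with MeOH eluate at 24 h, with a log2 difference of -0.27 ± 0.09 (adjusted p = 0.049), a call that held under 11 of 28 settings, and a second probe gave -0.03.

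Plxna4 and Plxnd1 were the plexins with large differences, and both were called at 24 h only. Plxna4, which transmits the class 3 semaphorin signal with neuropilin-1, read 7.32 and 7.43 with DMSO, 7.68, 7.46 and 7.48 with WS1442 and 7.37, 7.35 and 6.98 with MeOH eluate at 6 h. After 24 h the arrays gave 8.43 and 8.34 with DMSO, 7.80, 7.67 and 7.73 with WS1442 and 7.13, 7.10 and 7.03 with MeOH eluate, with the 3 groups separate and MeOH eluate lowest. Its differences were 0.16 and -0.14 at 6 h, and -0.65 ± 0.11 (adjusted p = 7.9e-04) and -1.30 ± 0.11 (adjusted p = 1.7e-06) at 24 h. Plxnd1, the vascular receptor of Sema3e, read 7.90 and 7.86 with DMSO, 8.05, 7.88 and 8.00 with WS1442 and 7.80, 7.78 and 7.88 with MeOH eluate at 6 h. After 24 h the arrays gave 8.98 and 8.77 with DMSO, 8.10, 8.15 and 7.97 with WS1442 and 7.85, 8.00 and 7.95 with MeOH eluate. DMSO was higher at 24 h than at 6 h and the treated arrays stayed near the 6 h level. The differences at 24 h were -0.80 ± 0.08 (adjusted p = 2.8e-05) and -0.94 ± 0.08 (adjusted p = 3.1e-06). Plxnb1, the receptor of Sema4d, was higher by 0.50 ± 0.12 (adjusted p = 0.032) and 0.42 ± 0.12 (adjusted p = 0.031) at 6 h and by 0.41 ± 0.12 (adjusted p = 0.025) with WS1442 at 24 h. In that order these calls held under 20, 21 and 23 of 28 settings. Plxnb2 was higher with MeOH eluate at 6 h by 0.31, Plxna2 with WS1442 at 6 h by 0.38 (held under 9 of 28 settings), and Plxna1 with MeOH eluate at 24 h by 0.24. Without DMSO 24 h replicate 2 the Plxna1 value was 0.13 and not called (adjusted p = 0.32), and the call was also lost without MeOH eluate 24 h replicate 3. Plxna3 and Plxnb3 were called in none of the 4.

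Of the ephrins, the ligands of the A class were called through accession-named probes at 24 h only, and each such call was lower, with 3 of 5 called with WS1442 and 2 of 5 with MeOH eluate. Efna1, the main ligand of Epha2, read 6.35 and 6.86 with DMSO, 6.77, 7.03 and 7.53 with WS1442 and 6.48, 6.99 and 6.76 with MeOH eluate at 6 h. In the 24 h samples it read 8.55 and 8.55 with DMSO, 7.77, 7.82 and 7.99 with WS1442 and 7.69, 7.50 and 7.20 with MeOH eluate. The DMSO arrays at 6 h overlapped the treated ones, while at 24 h both DMSO arrays were above every treated array. The differences were 0.51 ± 0.21 (adjusted p = 0.20) and 0.14 ± 0.21 (adjusted p = 0.72) at 6 h, and -0.69 ± 0.21 (adjusted p = 0.027) and -1.09 ± 0.21 (adjusted p = 0.0019) at 24 h. Efna2 was lower with WS1442 at -0.22 and with MeOH eluate at -0.30, and Efna4 was lower with WS1442 at -0.22, which without DMSO 24 h replicate 1 was -0.14 and not called (adjusted p = 0.20). Efnb1, a transmembrane ephrin needed for boundaries between cell groups, changed sides with time under WS1442. It read 9.52 and 9.57 with DMSO, 9.86, 9.99 and 10.11 with WS1442 and 9.54, 9.70 and 9.57 with MeOH eluate at 6 h. In the 24 h samples it read 10.28 and 10.19 with DMSO, 9.84, 9.89 and 9.82 with WS1442 and 9.99, 10.06 and 9.87 with MeOH eluate. WS1442 arrays were above DMSO at 6 h, by 0.44 ± 0.08 (adjusted p = 0.0061), and below at 24 h, with a log2 difference of -0.38 ± 0.08 (adjusted p = 0.0025). MeOH eluate differed by 0.06 at 6 h and -0.26 ± 0.08 (adjusted p = 0.03) at 24 h. Efnb3 was higher with WS1442 at 24 h by 0.38 ± 0.11 (adjusted p = 0.019), and Efnb2, the ligand of Ephb4, was called against DMSO in none of the 4.

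Among 8 class A Eph receptors, Epha2 was called in all 4 comparisons with opposite signs at the 2 time points. At 6 h it read 11.05 and 11.09 with DMSO, 10.52, 10.79 and 10.83 with WS1442 and 10.43, 10.41 and 10.29 with MeOH eluate. The signals at 24 h were 9.89 and 9.95 with DMSO, 10.43, 10.52 and 10.47 with WS1442 and 10.51, 10.47 and 10.27 with MeOH eluate. Treated arrays all lay below DMSO at 6 h and all above it at 24 h, and the DMSO arrays were lower at 24 h than at 6 h, while treated arrays lay between 10.27 and 10.83 at both. The differences were -0.36 ± 0.09 (adjusted p = 0.032) and -0.70 ± 0.09 (adjusted p = 9.9e-05), then 0.55 ± 0.09 (adjusted p = 4.8e-04) and 0.49 ± 0.09 (adjusted p = 0.001). Epha1 was lower with MeOH eluate at 6 h, with a log2 difference of -0.58 ± 0.09 (adjusted p = 5.8e-04) and with WS1442 at 24 h, with a log2 difference of -0.27 ± 0.09 (adjusted p = 0.039), the latter held under 16 of 28 settings.

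Epha4, which binds ephrins of both classes, was higher at 6 h in both treatments and with MeOH eluate at 24 h. It read 8.08 and 8.30 with DMSO, 8.84, 8.86 and 9.04 with WS1442 and 9.03, 9.22 and 9.12 with MeOH eluate at 6 h. The signals at 24 h were 8.38 and 9.43 with DMSO, 9.36, 9.28 and 9.29 with WS1442 and 9.56, 9.51 and 9.46 with MeOH eluate. The 2 DMSO arrays at 24 h lay far apart, and the higher one was above every WS1442 array and just below the MeOH eluate arrays. The differences were 0.72 ± 0.19 (adjusted p = 0.047) and 0.94 ± 0.19 (adjusted p = 0.0046) at 6 h and 0.61 ± 0.19 (adjusted p = 0.044) with MeOH eluate at 24 h, and these calls held under 9 of 28, 26 of 28 and 9 of 28 settings. Without DMSO 24 h replicate 1 the last was 0.08 and not called (adjusted p = 0.77), and without replicate 2 it was 1.13. Epha6 was higher at 24 h by 0.61 ± 0.19 (adjusted p = 0.028) and 0.74 ± 0.19 (adjusted p = 0.012). It read 4.80 and 4.87 with DMSO, 5.23, 5.76 and 5.34 with WS1442 and 5.64, 5.34 and 5.75 with MeOH eluate, with DMSO lowest. Epha8 was higher with MeOH eluate at 6 h by 0.36 and with WS1442 at 24 h by 0.33. Epha3, Epha7 and Epha10 were called in none.

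Class B receptors were read through 5 genes. Ephb1 was higher at 24 h in both treatments, by 1.08 ± 0.24 (adjusted p = 0.005) and 0.88 ± 0.24 (adjusted p = 0.02). It read 7.00 and 7.45 with DMSO, 8.77, 7.82 and 8.33 with WS1442 and 8.12, 7.88 and 8.32 with MeOH eluate, with both DMSO arrays lowest. At 6 h it could not be tested, since the scanner software marked its spot as non-uniform on both DMSO arrays and those values were dropped. Ephb3 was lower at 24 h in both treatments, with a log2 difference of -0.49 ± 0.06 (adjusted p = 8.8e-05) and -0.47 ± 0.06 (adjusted p = 8.6e-05). It read 10.58 and 10.50 with DMSO, 10.08, 10.09 and 9.97 with WS1442 and 10.05, 10.07 and 10.07 with MeOH eluate, and the treated groups lay side by side below DMSO. Ephb4 was lower with WS1442 at 6 h, with a log2 difference of -0.35 ± 0.09 (adjusted p = 0.041), held under 14 of 28 settings, and higher with WS1442 at 24 h by 0.35 ± 0.09 (adjusted p = 0.011). Ephb6, an Eph receptor without kinase activity, was higher with WS1442 at 24 h by 0.27, while its other kept probe gave -0.14 ± 0.14 (adjusted p = 0.52). Ephb2 was called in none of the 4 through its brighter accession-named probe.

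**Figure D3:**
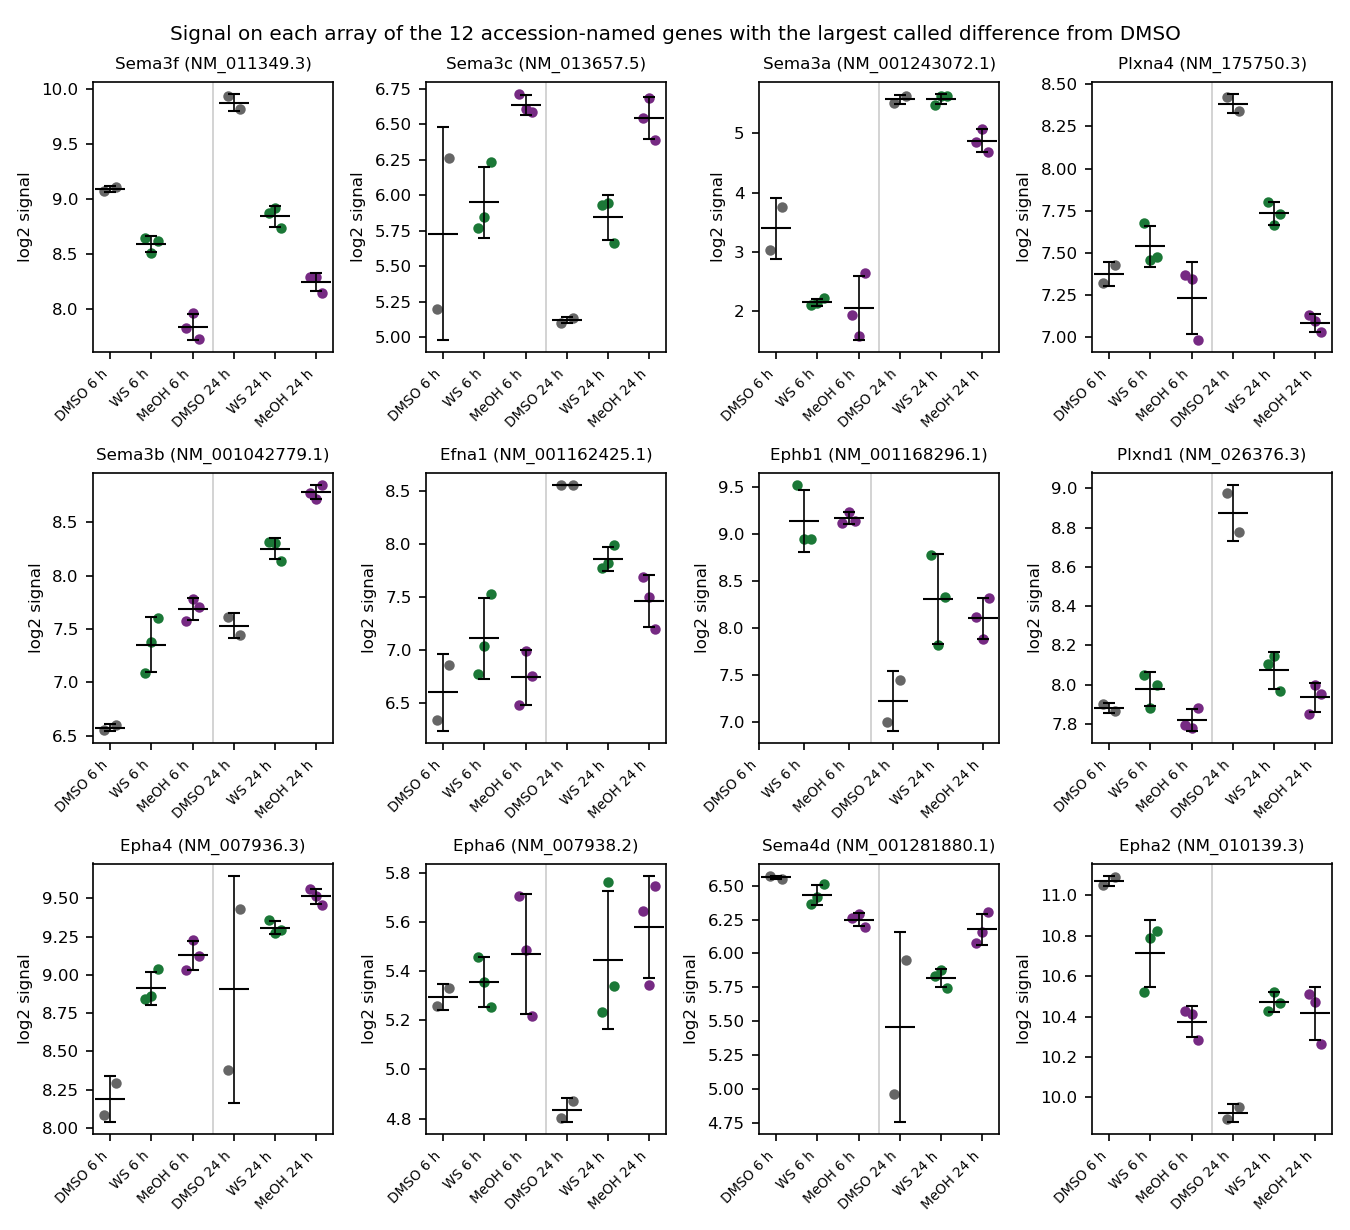
Normalized log2 signal (vertical axis) of the 12 accession-named guidance genes with the largest called difference from DMSO, with a point for each array, a bar for the group mean and whiskers for the SD (MeOH is the MeOH eluate, WS is WS1442). Sema3f shows 3 separate groups at both time points, and Sema3a at 6 h lies near or below background.

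Netrins, slits and their receptors held few calls. Ntn5 was higher with WS1442 at 24 h by 0.65 ± 0.13 (adjusted p = 0.0019), and Ntn1, Ntn3 and Ntn4 were called in none of the 4. Ntn5 read 7.43 and 7.40 with DMSO, 7.96, 7.98 and 8.25 with WS1442 and 7.73, 7.43 and 7.40 with MeOH eluate, and WS1442 lay above both other groups, with MeOH eluate minus WS1442 at -0.54 ± 0.11 (adjusted p = 0.0056). Unc5b, the netrin receptor of endothelium, was lower at 6 h in both treatments, with a log2 difference of -0.31 ± 0.07 (adjusted p = 0.024) and -0.53 ± 0.07 (adjusted p = 2.0e-04). It read 12.51 and 12.49 with DMSO, 12.12, 12.25 and 12.20 with WS1442 and 11.85, 11.96 and 12.11 with MeOH eluate, with the treated arrays all below DMSO. Unc5c through its accession-named probe was well above background on 0 of 2 DMSO arrays at 6 h, on 2 of 3 with WS1442 and on 1 of 3 with MeOH eluate. The treated mean was set against the lowest signal well above background on each DMSO array. It was 1.32-fold that level with WS1442 and 1.23-fold with MeOH eluate. These ratios carry no error, and the treated means include arrays not well above background. By limma neither difference from DMSO was called (adjusted p = 0.10 and 0.085). The symbol-named Unc5c probe gave 0.38 and 0.20 on the log2 scale at 6 h, neither called. Slit3 was lower with MeOH eluate at 6 h, with a log2 difference of -0.36 ± 0.09 (adjusted p = 0.012). Robo1, the main slit receptor on many cells, was lower with MeOH eluate at 24 h, with a log2 difference of -0.63 ± 0.11 (adjusted p = 6.3e-04). It read 9.80 and 9.68 with DMSO, 9.53, 9.46 and 9.59 with WS1442 and 9.26, 9.12 and 8.95 with MeOH eluate, and MeOH eluate was lowest. Slit1, Slit2, Robo2, Robo3 and the endothelial Robo4 were called in none of the 4.

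The same gene read under its 2 names did not always give the same answer. Of the genes tested under both, the signs matched in 5 of 14 with WS1442 and 10 of 14 with MeOH eluate at 6 h, and in 8 of 15 and 9 of 15 at 24 h. Both probes called the same direction for 0 and 1 genes at 6 h and for 2 and 0 at 24 h, namely Nrp1, then Sema4c and Ephb4, and no gene was called in opposite directions by the pair that stood for it. The Nrp1 call of the symbol-named probe rests on signals below background, as given above. With 1 array left out at a time, the symbol-named calls of Sema4c and Ephb4 were kept in 5 and 9 of 16 fits. Their accession-named calls were kept in 15 and 14. For Efna3 the symbol-named probe gave -0.86 ± 0.09 with MeOH eluate at 6 h and the accession-named one -0.32 ± 0.16, which was not called. For Ephb2 with WS1442 at 24 h the symbol-named probe gave -0.39 ± 0.11, the brighter accession-named probe 0.05 ± 0.11, and the dimmer one 0.29 ± 0.07, which was called higher. For Unc5c with MeOH eluate at 24 h they gave 0.71 ± 0.23 and -0.23 ± 0.32. For Robo1 in the same comparison they gave 0.35 ± 0.31 and -0.63 ± 0.11, and for Ephb1 -0.40 ± 0.22 and 0.88 ± 0.24. The difference between 2 probes of a gene was not tested.

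**Figure D4:**
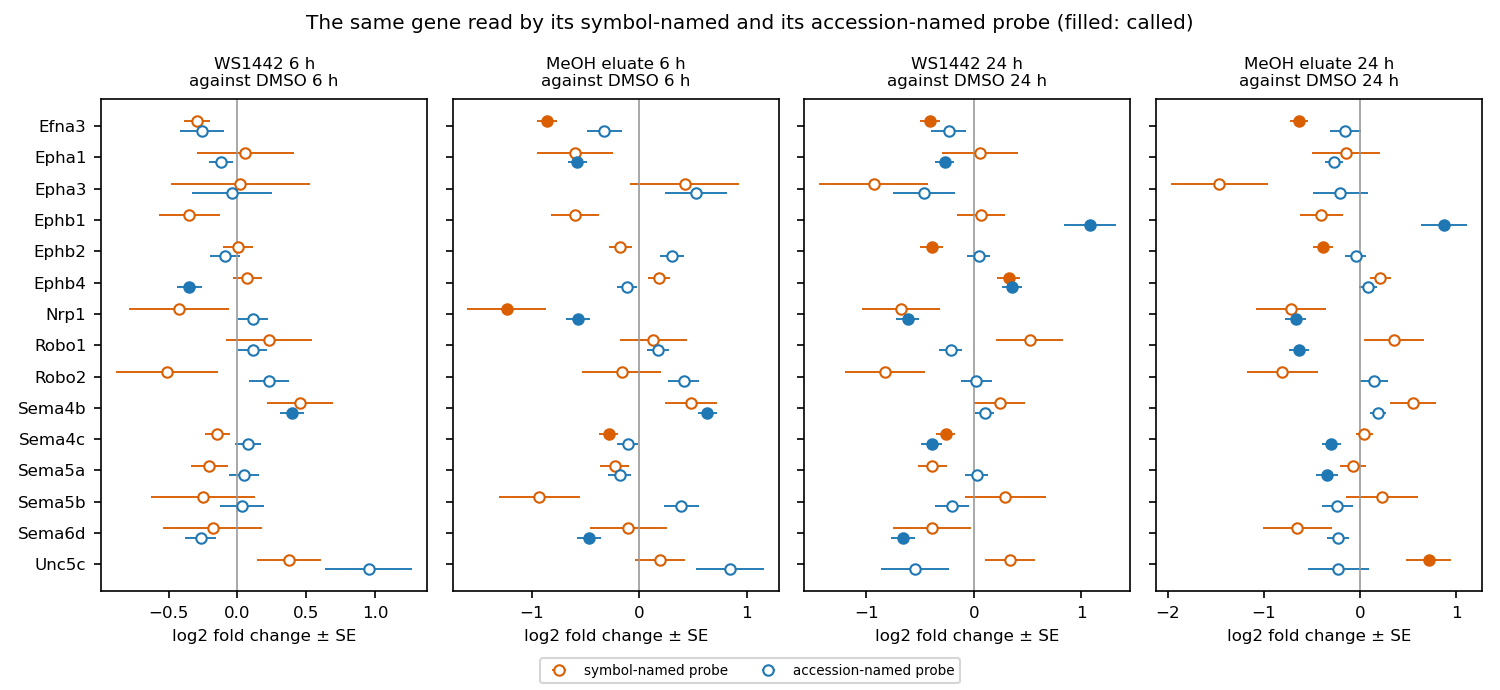
Log2 difference from DMSO with its SE (horizontal axis) for the 15 genes tested under both names, in the 4 comparisons; orange is the symbol-named and blue the accession-named probe, and a filled point is a call. Nrp1 is lower by both probes with MeOH eluate at 6 h, where its symbol-named probe reads near or below background. The Ephb1 and Unc5c probes lie on opposite sides of 0 at 24 h with MeOH eluate.

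The change against DMSO differed between 24 h and 6 h for 13 of 62 accession-named genes with WS1442, 2 of them upwards and 11 downwards, and for 10 of 62 with MeOH eluate, 2 upwards and 8 downwards, beside 11.5% and 7.14% of all features called. Efna1, Efna2, Epha2, Ephb3, Plxna4 and Plxnd1 were on both lists. The change at 24 h minus that at 6 h was -0.81 ± 0.16 (adjusted p = 0.0058) for Plxna4 with WS1442 and -1.15 ± 0.16 (adjusted p = 3.2e-04) with MeOH eluate. For Plxnd1 it was -0.90 ± 0.12 (adjusted p = 9.7e-04) and -0.88 ± 0.12 (adjusted p = 3.5e-04). For Epha2, which went from lower to higher with both treatments, it was 0.91 ± 0.12 (adjusted p = 0.0011) and 1.19 ± 0.12 (adjusted p = 3.6e-05). Ephb4 was called lower and then higher with WS1442, with a value of 0.702. With MeOH eluate it gave -0.11 at 6 h and 0.08 at 24 h, neither called. Its symbol-named probe gave 0.07 and 0.32 with WS1442 at the 2 times, only the second called. Efnb1 gave -0.82 ± 0.11 (adjusted p = 9.7e-04) with WS1442 and -0.32 ± 0.11 (adjusted p = 0.10) with MeOH eluate. Sema3b, which was higher at both time points, gave -0.06 and 0.14, and neither was called. The DMSO samples themselves read differently at the 2 time points for several of these genes, such as Efna1 with 6.35 and 6.86 at 6 h and 8.55 and 8.55 at 24 h, and Nrp1 with 8.51 and 8.48 at 6 h and 10.24 and 10.18 at 24 h.

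**Figure D5:**
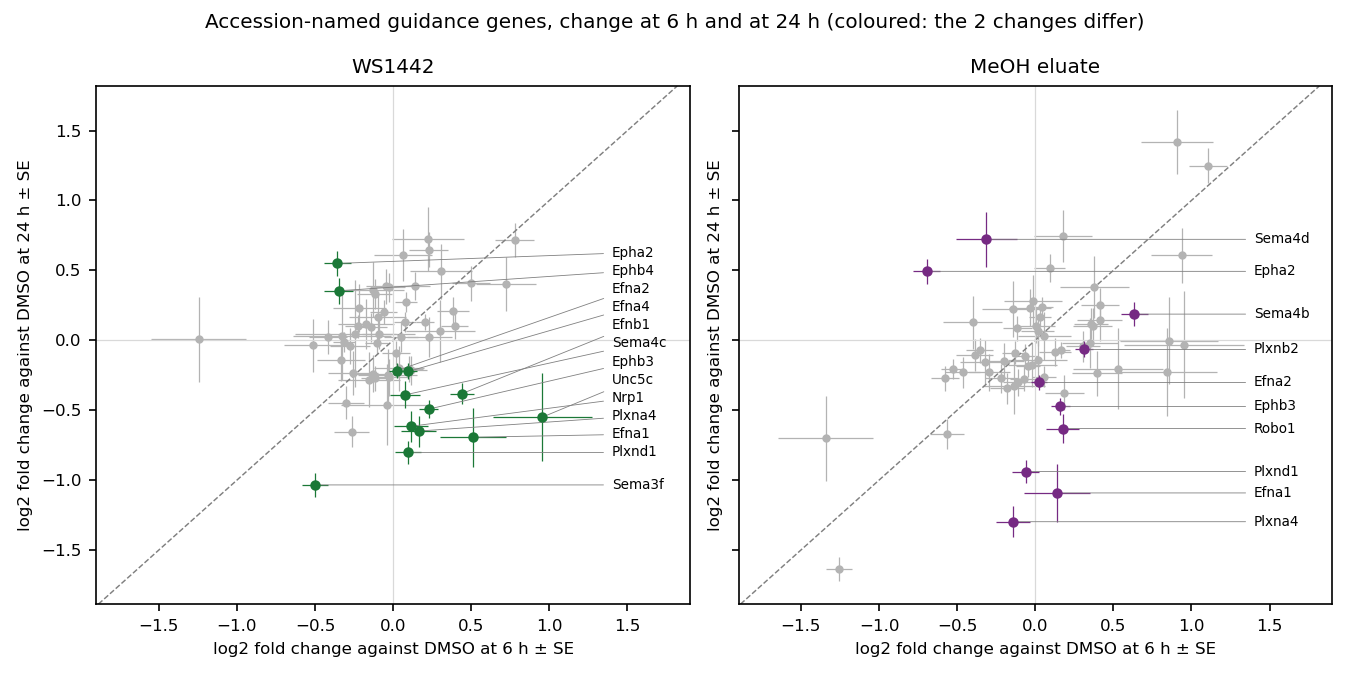
Log2 difference from DMSO at 6 h (horizontal axis) and at 24 h (vertical axis), each with its SE, of the accession-named guidance genes tested at both time points, for WS1442 and for MeOH eluate; coloured and named points are genes whose 2 changes differed by the interaction test, and the dashed line marks equal change. Epha2 lies in the upper left in both panels, and Plxna4, Plxnd1 and Efna1 lie below the line in both.

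Between the 2 treatments, 14 of 63 accession-named genes differed at 6 h and 17 of 63 at 24 h, and MeOH eluate had the higher signal for 7 and for 5 of these, beside 11.6% and 13.7% of all features called. At 6 h MeOH eluate minus WS1442 was -0.68 ± 0.10 (adjusted p = 8.7e-04) for Nrp1, -0.46 ± 0.08 (adjusted p = 0.0033) for Epha1 and -0.38 ± 0.07 (adjusted p = 0.0038) for Efnb1, while Epha8 was higher with MeOH eluate by 0.48 ± 0.10 (adjusted p = 0.0084). At 24 h it was -0.65 ± 0.10 (adjusted p = 8.7e-04) for Plxna4 and -0.42 ± 0.09 (adjusted p = 0.0091) for Robo1, and Sema3b was higher by 0.53 ± 0.11 (adjusted p = 0.0055). For other genes the difference was not called, with MeOH eluate minus WS1442 at 24 h at -0.14 ± 0.08 for Plxnd1, 0.02 ± 0.06 for Ephb3 and -0.06 ± 0.08 for Epha2.

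Coreceptors and modifiers of the guidance families outside the member list were read for 18 of 20 listed genes. With WS1442 and MeOH eluate 5 and 6 were higher and none lower at 6 h, and at 24 h 3 were higher and 2 lower, then 4 higher and 3 lower. Of all features 3.55% and 7.89% were called higher and 1.17% and 8.4% lower at 6 h. At 24 h 11.4% and 8.94% were higher and 12.2% and 8.21% lower. The median log2 difference of the 18 genes was 0.07, 0.19, 0.02 and 0.02 in that order. Neo1, a receptor shared by netrins and repulsive guidance molecules, was higher at 6 h by 0.46 ± 0.07 (adjusted p = 0.0037) and 0.62 ± 0.07 (adjusted p = 6.5e-05). Its ligand gene Rgma was higher in all 4, by 0.67, 0.84, 0.25 and 0.97. L1cam, an adhesion partner of Nrp1, was higher at 6 h by 0.47 and 0.44 and lower at 24 h, with a log2 difference of -0.68 and -0.76, all called. Met, a receptor that joins B plexins, was higher at 24 h by 0.81 and 0.78.

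All 40 listed genes of the signalling below the receptors were tested. Their calls stand beside the same shares of all features as those of the coreceptors. At 6 h 2 were higher and 0 lower with WS1442, and 6 higher and 6 lower with MeOH eluate. At 24 h it was 9 higher and 1 lower with WS1442, and 14 higher and 3 lower with MeOH eluate. Their medians were 0.04, 0.03, 0.16 and 0.21, beside -0.00, -0.01, 0.02 and 0.01 over all features. Ngef, an exchange factor that Eph receptors bind, had the largest called differences among them, 1.68 ± 0.41 (adjusted p = 0.0078) and 1.72 ± 0.41 (adjusted p = 0.0079) at 24 h, after 0.06 and 0.03 at 6 h. Vav3, an exchange factor of Rac, was higher in all 4, by 0.41, 0.77, 0.47 and 0.41. Fyn, a kinase of both the plexin and the Eph pathways, was higher by 0.62 with MeOH eluate at 6 h and by 0.46 and 0.26 at 24 h. Mical1, a plexin-bound enzyme that oxidises actin, was lower at 24 h, with a log2 difference of -0.34 and -0.47.

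Markers of cell types moved with the treatments too. For every marker list the shares of all features called are those given with the coreceptors. Of 6 early mesoderm markers 2 were lower under WS1442 and 4 under MeOH eluate at each of the time points, with none higher. Mixl1, a factor of the primitive streak, was lower in all 4, with -0.99, -2.39, -0.47 and -1.20. The log2 of the summed mesoderm signal was 11.56 to 11.60 in DMSO, 10.90 to 11.02 with WS1442 and 10.06 to 10.24 with MeOH eluate at 6 h, and 11.12 to 11.18, 10.76 to 10.83 and 10.34 to 10.38 at 24 h. The groups did not overlap at either time. In each marker sum the signals were added before the log2 was taken, so the brightest probes weigh most. Of 4 tested endoderm markers 1 and 3 were lower at 6 h, and 1 and 2 at 24 h, with 1, Afp, higher with WS1442 at 24 h. The endoderm sum was 10.92 to 10.95 in DMSO, 10.52 to 10.66 with WS1442 and 10.08 to 10.31 with MeOH eluate at 6 h, and 11.27 to 11.36, 11.12 to 11.30 and 10.43 to 10.72 at 24 h, where WS1442 overlapped DMSO.

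Of 8 tested cardiac markers 0 and 2 were higher at 6 h, and at 24 h 1 was higher and 3 lower with WS1442 and 4 were lower with MeOH eluate. The cardiac factor gene Gata4 gave -0.72 and -1.38 at 24 h, further from 0 than the medians of the 8 genes, -0.15 and -0.51. It does not stand for the whole list. The cardiac sum was 9.92 to 9.95, 9.84 to 10.03 and 10.01 to 10.16 at 6 h in DMSO, WS1442 and MeOH eluate, and 10.55 on both DMSO arrays, 10.26 to 10.43 and 9.80 to 9.96 at 24 h. Myh6, whose promoter drives the reporter, was the 1 cardiac marker with no kept probe. Of 5 tested neural markers 2 were higher with WS1442 and 1 with MeOH eluate at 24 h and none was called at 6 h, with sums of 12.03 to 12.05, 11.94 to 12.03 and 12.08 to 12.28 at 24 h. Of 5 neural crest markers 2 were lower with MeOH eluate at 6 h, 1 was higher with WS1442 and 1 lower with MeOH eluate at 24 h, and the sums at 24 h were 10.15 to 10.26, 10.75 to 11.07 and 10.33 to 10.42. The median log2 difference of these 5 genes at 24 h was -0.20 with WS1442 and -0.05 with MeOH eluate, so the higher WS1442 sum is not shared by most of them. Of 5 tested endothelial markers 1, Cdh5, was lower with MeOH eluate at 24 h, while the sums overlapped, at 8.21 to 8.58, 8.26 to 8.47 and 8.19 to 8.45. Of 6 pluripotency markers 1 was lower with MeOH eluate at 6 h and 1 with WS1442 at 24 h, and the sums overlapped at both times. The part of a changed mix of cells in the differences of the guidance genes was not tested.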

How the data were processed

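RNA of 16 samples was hybridised to Agilent 1-colour arrays. The authors deposited scanner files of Feature Extraction 11.5.1.1, whose processed signal is an intensity, spot flags, and a series table of intensity values that the authors had quantile normalized over the 16 arrays. The number of arrays limits the precision.

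From the deposited processed intensity, gene spots (control type 0) with non-uniformity flags were dropped, arrays were quantile normalized and log2 values taken (R 4.3.3, limma 3.58.1, Python 3.11.15). Of 60273 gene probes 36727 were kept, those that 1 group or more had well above background throughout. The brightest kept probe stood for each of 35956 array gene names. One limma fit with a trend over the 6 groups gave all contrasts, with Benjamini-Hochberg adjustment over all features. The series table, which the membership rule names, served as an alternative, since member values differed from it by a median of 0.00848 on the log2 scale. Of 47631 accession-named probes 29853 matched a symbol in a RefSeq table (GRCm38.p6), which was used for names only. An annotation of mm9, the build of the probe coordinates, was not used here.

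Samples were grouped by the labels' treatment and time. Members are named by their family symbols, per-sample values were to be given for up to 30 members called against DMSO, ranked by their largest difference, and the others by counts and examples. The members and all gene lists (coreceptors, signalling, pluripotency, early mesoderm, cardiac, neural, neural crest, endothelial, endoderm) were chosen with earlier results of these data known. Alternatives were other scalings and background corrections, other filters, probe rules and fits, a replicate block, the methods' t-test, and each array left out. The counts over probes with TG runs were added after the data were seen. The fit was tested on simulated data before use.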

Additional observations from a re-analysis of the deposited data

Results flagged for a closer look

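The change against DMSO at 24 h differed from that at 6 h by limma's interaction test for 23 combinations of an accession-named guidance gene and a treatment. Each value is the log2 difference from DMSO at 24 h minus that at 6 h. With WS1442 it was above 0 for Epha2 at 0.907 and Ephb4 at 0.702. It was below 0 for Unc5c at -1.5, Efna1 at -1.2, Plxnd1 at -0.898, Efnb1 at -0.822, Plxna4 at -0.812, Nrp1 at -0.73, Ephb3 at -0.72, Sema3f at -0.533, Sema4c at -0.467, Efna4 at -0.321 and Efna2 at -0.241. The Unc5c value rests on DMSO signals at 6 h that were not well above background. With MeOH eluate it was above 0 for Epha2 at 1.19 and Sema4d at 1.03. It was below 0 for Efna1 at -1.23, Plxna4 at -1.15, Plxnd1 at -0.877, Robo1 at -0.807, Ephb3 at -0.635, Sema4b at -0.446, Plxnb2 at -0.376 and Efna2 at -0.324.

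With 1 array left out at a time, in 16 fits, the call was kept in 1 for Efna2 with WS1442, 3 for Unc5c, 5 for Sema4b, 8 for Sema4d and 9 for Sema4c. Without DMSO 24 h replicate 1 the Sema4d value was 0.54 and not called (adjusted p = 0.087). It was kept in 13 to 15 for Efna1 with either treatment, Efna4, Sema3f, Plxnb2 and Efna2 with MeOH eluate, and in all 16 for the others. Since each time point had its own slide, time point and slide cannot be told apart.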

How the results depend on the processing

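No call changed direction under any alternative run that recomputed it. Each call was followed under the probe name that made it. A reading of the gene by a differently named probe was therefore not counted there. Such a reading was 0.05 for Ephb2 with WS1442 at 24 h, where the call of the symbol-named probe was -0.39. Of 2349 recomputed values of the 84 called pairs of gene and comparison, 1916 kept the call and 433 lost it. The counts below are numbers of genes called. Without the filter on dim probes they were 1 symbol-named gene with MeOH eluate at 6 h and 5 accession-named genes with WS1442 at 6 h. Averaging kept probes gave 1 symbol-named gene for the change of the WS1442 effect with time, and so did the authors' table, which gave 0 between treatments at 24 h. Without the trend these were 0 symbol-named genes between treatments at 24 h and 5 accession-named genes with WS1442 at 6 h. Fitting each time point alone gave 1 symbol-named gene with MeOH eluate at 6 h and 2 between treatments at 24 h, and 4 and 10 accession-named genes at 6 h with WS1442 and MeOH eluate. Array weights gave 5 symbol-named genes with MeOH eluate at 6 h and 2 with WS1442 at 24 h. The methods' t-test after Benjamini-Hochberg gave 0 symbol-named genes in each comparison that had a call, 0 accession-named genes in 3 comparisons with DMSO and 3 with MeOH eluate at 24 h. At an unadjusted p under 0.05 it gave 3, 2, 4 and 4 symbol-named and 14, 22, 25 and 22 accession-named genes (WS1442 then MeOH eluate at 6 h, then at 24 h), of which 0, 0, 0 and 0 and 1, 2, 1 and 5 were also over 2-fold.

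The replicate block gave 1 symbol-named gene with MeOH eluate at 6 h, 1 with WS1442 at 24 h, and 5 accession-named genes with WS1442 at 6 h. The labels do not say whether replicate numbers pair the samples. Deviations of same-numbered samples correlated at -0.25 to 0.26. Differently numbered samples were not correlated for reference, so these values cannot decide it.

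Alternatives chosen after seeing the data were the accession-named probes, a joint naming and a Sema4c probe. Joined by RefSeq symbol, the symbol-named genes gave 2, 6, 7 and 6 calls against DMSO in that order, 4 and 4 between treatments at 6 h and 24 h, and 2 and 2 for change with time. In that joining only 4 of the 63 guidance genes tested at 24 h were read by a symbol-named probe. These counts therefore rest mostly on accession-named probes. Without the Sema4c probe that holds the TG run, symbol-named genes called were 0 between treatments at 24 h and 1 for the change of the WS1442 effect.

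Leaving out 1 array at a time, symbol-named genes called ranged 0 to 1 and 1 to 5 at 6 h (WS1442, MeOH eluate), 1 to 4 and 1 to 3 at 24 h, 1 to 3 and 0 to 2 between treatments, and 0 to 0 and 0 to 1 for change with time. Accession-named genes ranged 2 to 11 and 9 to 20 at 6 h, and 13 to 26 and 12 to 23 at 24 h. For accession-named genes, leaving out DMSO 6 h replicate 1 gave 2 with WS1442 and 9 with MeOH eluate at 6 h, and DMSO 6 h replicate 2 gave 3 with WS1442, WS1442 6 h replicate 2 gave 7 and replicate 3 gave 4. Leaving out DMSO 24 h replicate 1 gave 13 with either treatment at 24 h, and MeOH eluate 24 h replicate 3 gave 12 with MeOH eluate. For symbol-named genes, the MeOH eluate count at 6 h was 1 without either DMSO array or MeOH eluate replicate 3 of that time. The WS1442 count at 24 h was 1 without replicate 1 of DMSO or replicate 2 of WS1442 and 2 without replicate 3 of WS1442 or replicate 1 of MeOH eluate at 24 h. The MeOH eluate count at 24 h was 1 without its replicate 1 or 3.

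With 75th percentile scaling the share of calls that were higher moved from 33.3% of 3 calls to 0% of 3 for symbol-named genes with MeOH eluate at 24 h. It moved from 54.5% of 11 calls to 66.7% of 9 for accession-named genes with WS1442 at 6 h. For all features with WS1442 at 24 h it moved from 48.2% of 8481 calls to 37.0% of 8475. The first 2 shares rest on few calls. The cause of these shifts was not tested. Of the symbol-named probes 34 of 58 were above background on no array, so many members were not detectable under that name.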
